A study of Mus musculus with 7 samples.

Results

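Ide and the 7 protein-coding genes that lie around it on mouse chromosome 19 were examined in RNA-sequencing of LSK cells. LSK is the Lin-Sca1+Kit+ fraction of bone marrow, in which stem cells and the earliest multipotent progenitors of blood are found. The 8 genes, in chromosomal order Fgfbp3, Btaf1, Cpeb3, March5, Ide, Kif11, Hhex and Exoc6, were taken by symbol and position from the 24421 gene symbols of the deposited count table, and all 8 passed the filter on low counts. Ide was selected on its difference in expression between the genotypes in these same samples, and its neighbours were selected by their position beside it with their values known. Their genotype differences are therefore given as a description, with no p-value. Where a call of the fit across all genes is counted for them, it stands beside the share of all genes called and supports nothing.

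The 7 samples came from BoyJ recipient mice, lethally irradiated in the study's methods, that had received 1000000 bone marrow mononuclear cells. In 4 samples (replicates 1 to 4, Ddx41+/+) the donors carried RosaCreERT2 and wild-type Ddx41. In 3 samples (replicates 6 to 8, Ddx41+/-) they carried RosaCreERT2 and 1 floxed Ddx41 allele. Mice of both genotypes received tamoxifen, 1 mg in 50 µl corn oil, in 2 rounds of 5 days separated by 2 days, so Cre activation and the drug were shared and the floxed allele was the labelled difference. LSK cells, about 20000 per mouse, were sorted at 8 weeks. The Rosa26 promoter is active in nearly all cell types, so the deletion was not limited to LSK cells. A gate that separates donor from remaining host cells was not given for these samples in the sources used here, and the age of the mice was not given either. The study's methods give C57BL/6N as the background of its mouse strains.

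Each of the 8 genes has a separate job in the cell. Ide encodes insulin-degrading enzyme, a zinc metalloprotease of the M16 family that cleaves insulin, amyloid-beta and other short peptides. Hhex, a homeobox transcription factor first described in hematopoietic tissue, acts in early progenitors and in lymphoid development, and Kif11 encodes Eg5, the motor that pushes spindle poles apart in mitosis. Exoc6 encodes a subunit of the exocyst, which tethers secretory vesicles, and is mutated in the hemoglobin-deficit mouse, whose red cell precursors recycle transferrin poorly. Btaf1 encodes an ATPase that strips TATA-binding protein (TBP) from DNA, and March5 a ubiquitin ligase of the outer mitochondrial membrane. Cpeb3 encodes an mRNA-binding regulator of translation, and Fgfbp3 a secreted protein that binds fibroblast growth factors (FGFs).

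The segment from the start of Fgfbp3 to the end of Exoc6 ran from position 36917550 to position 37684059 of chromosome 19 (build GRCm38, which is mm10, GENCODE M21 annotation), a span of 766.5 kb. Ide (chr19:37268743-37337852, ENSMUSG00000056999) is read from the minus strand. Upstream of its annotated start lay Kif11 (chr19:37376403-37421859), Hhex (chr19:37434810-37440731) and Exoc6 (chr19:37550418-37684059), all on the plus strand, and their start sites were 38.6, 97.0 and 213 kb from that of Ide. On the other side lay March5 (chr19:37207543-37222151, plus strand), Cpeb3 (chr19:37021291-37208601, minus strand), Btaf1 (chr19:36926079-37012752, plus strand) and Fgfbp3 (chr19:36917550-36919615, minus strand). The count table held 1 other symbol inside the segment, an antisense transcript of Cpeb3 named A330032B11Rik, which reached at most 1 count in a sample. It shares 116 exonic bases with Cpeb3, 1.56% of that gene's exons, and no other exons of the 8 genes overlapped.

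The 250 bases upstream of the RefSeq start are shown for Ide and Btaf1, whose samples separated by genotype, and for Kif11 and Hhex, the next genes upstream of Ide, whose samples overlapped (build GRCm38.p6, 5′ to 3′ on the strand of the gene). Capitals mark each CpG dinucleotide. The windows are chr19:37334545-37334794 (minus strand) for Ide, chr19:36925829-36926078 (plus strand) for Btaf1, chr19:37376132-37376381 (plus strand) for Kif11 and chr19:37434591-37434840 (plus strand) for Hhex.
Ide: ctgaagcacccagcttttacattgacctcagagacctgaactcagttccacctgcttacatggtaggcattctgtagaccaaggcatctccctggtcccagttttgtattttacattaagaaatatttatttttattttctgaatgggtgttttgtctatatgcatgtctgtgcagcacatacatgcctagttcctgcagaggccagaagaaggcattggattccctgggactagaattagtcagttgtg
Btaf1: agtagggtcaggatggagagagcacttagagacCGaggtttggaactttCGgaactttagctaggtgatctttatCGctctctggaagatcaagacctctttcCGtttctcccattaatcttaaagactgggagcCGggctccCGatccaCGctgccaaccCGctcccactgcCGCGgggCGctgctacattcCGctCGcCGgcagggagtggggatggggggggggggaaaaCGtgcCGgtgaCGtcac
Kif11: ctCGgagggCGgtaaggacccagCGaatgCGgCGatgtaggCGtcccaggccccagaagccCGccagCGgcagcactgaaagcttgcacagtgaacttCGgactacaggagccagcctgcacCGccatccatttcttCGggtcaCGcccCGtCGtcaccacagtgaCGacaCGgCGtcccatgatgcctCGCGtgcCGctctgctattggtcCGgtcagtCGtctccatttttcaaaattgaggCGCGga
Hhex: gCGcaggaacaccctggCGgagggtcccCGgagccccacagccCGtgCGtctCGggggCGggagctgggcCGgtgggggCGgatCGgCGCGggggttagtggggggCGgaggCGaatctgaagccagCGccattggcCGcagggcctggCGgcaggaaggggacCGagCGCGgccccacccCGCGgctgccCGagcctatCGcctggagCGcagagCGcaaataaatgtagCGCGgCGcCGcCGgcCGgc

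The Ide window held 0 CpG and 42.8% G or C, against 17 CpG and 58.4% for Btaf1, 24 CpG and 62% for Kif11, and 32 CpG and 76% for Hhex. Over the first RefSeq window of each of 27025 mouse genes the median was 6 CpG and 52% G or C, and 8.26% of windows held 0 CpG. The annotations do not place the Ide start at 1 position. RefSeq gives 37334544, GENCODE puts the start of the gene 3.31 kb further upstream, and the start of its coding transcripts 3.93 kb downstream of the RefSeq site. The base composition of the printed window is therefore that of the RefSeq start alone. Searched on both strands, the CCAAT box (CCAAT) occurred once each in the windows of Ide, Kif11 and Hhex, and in 34.5% of all windows. The GC box (GGGCGG) occurred 3 times upstream of Hhex, once upstream of Kif11 and not upstream of Ide or Btaf1, and 32.9% of all windows held it. The TATA box (TATAAA) was in 13.0% of all windows and in none of these 4. These matches are letters in a window and were not tested as binding sites.

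Cpeb3 and March5 start head to head in RefSeq. The 68 bases between their nearest RefSeq start sites (chr19:37207472-37207539, plus strand, sites 69 bases apart) are shown because the levels of these neighbours differed so widely.
Cpeb3-March5: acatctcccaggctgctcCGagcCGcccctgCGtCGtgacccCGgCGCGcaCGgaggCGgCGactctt
This stretch held 10 CpG and 73.5% G or C. It holds for these RefSeq starts alone. In GENCODE the start of Cpeb3 (37208601) lies inside March5, which starts at 37207543, so the genes overlap there. RefSeq also gives starts of Cpeb3 at 37198108 and 37176063.

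Each sample held between 32234499 and 43751290 counts over genes. Values below are counts per 1000000 counts of the sample (CPM), scaled between samples by the trimmed mean of M-values (TMM), and fold changes are Ddx41+/- over Ddx41+/+. Ddx41, the RNA helicase gene whose floxed allele defines the genotypes, read 92.8, 98.8, 93.3 and 106.6 CPM in the Ddx41+/+ samples and 68.1, 64.4 and 69.5 CPM in the Ddx41+/- samples. It fell by 0.54 on the log2 scale (SE 0.071, adjusted p = 0.0052 by edgeR's quasi-likelihood test with Benjamini-Hochberg adjustment). Summed over 7 LSK marker genes, the level was 1466 to 1622 CPM in Ddx41+/+ samples, against 1387 to 1476 CPM in Ddx41+/- samples. The summed level of 8 neutrophil genes was 733 to 1240 CPM in Ddx41+/+ and 1314 to 2252 CPM in Ddx41+/-. Of the 8, 5 were higher in every Ddx41+/- sample, beside 4.85% of all genes. By edgeR or DESeq2 0 passed the threshold, and 7 had an unadjusted edgeR p under 0.05, beside 10.6% of all genes. Cxcr2, a member of this list named after its values were seen, went the other way, with a log2 fold change of -0.24 (SE 0.19). The adult hemoglobin genes Hba-a1, Hba-a2, Hbb-bs and Hbb-bt, which are near-identical copies in pairs, were at 0 in all samples.

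Ide was higher in all 3 Ddx41+/- samples than in any Ddx41+/+ sample. It read 241.5, 223.3, 201.7 and 210.5 CPM in Ddx41+/+ replicates 1 to 4. In Ddx41+/- replicates 6 to 8 it read 325.4, 362.7 and 354.3 CPM. The means were 219.2 ± 17.3 CPM (SD, n = 4) and 347.5 ± 19.6 CPM (SD, n = 3), 1.58-fold apart, with a log2 fold change of 0.66 (SE 0.068). The groups did not overlap, and the gap between the lowest Ddx41+/- and the highest Ddx41+/+ sample was 0.43 on the log2 scale. Within groups the spread was 0.10 (SD of log2 CPM). Behind these values were 6384 to 15717 counts per sample, so counting error was at most 1.25% of a value. In bulk RNA of this kind, a change in the share of cells that express a gene and a change in its RNA per cell cannot be told apart. The neutrophil gene sum also separated by genotype, at 733 to 1240 CPM in Ddx41+/+ and 1314 to 2252 CPM in Ddx41+/- samples. Replicate 6 had the highest neutrophil gene sum, and its Ide level was the lowest of the Ddx41+/- group but above every Ddx41+/+ sample. No relation between them was computed, and 3 samples in a group are too few to read one. The part of the neutrophil genes in the Ide difference was not tested.

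Of the 8 genes, 1 was called at an adjusted p under 0.05 by edgeR (Ide, higher), beside 0.217% of the 13340 genes tested (0.12% higher and 0.0975% lower). At an adjusted p under 0.1 it was again Ide alone, beside 0.555% of all genes. A further gene, Btaf1, did not overlap between genotypes, so that 2 of 8 stood higher in every Ddx41+/- sample and 0 lower, beside 10.1% of all genes without overlap (4.85% higher and 5.21% lower in Ddx41+/-). The log2 fold changes of the 8 genes were positive in 7 and negative in 1, with a median of 0.19 against -0.0048 over all genes. Since Ide and its surroundings were taken from this same comparison, nothing is read from these counts.

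**Figure D1:**
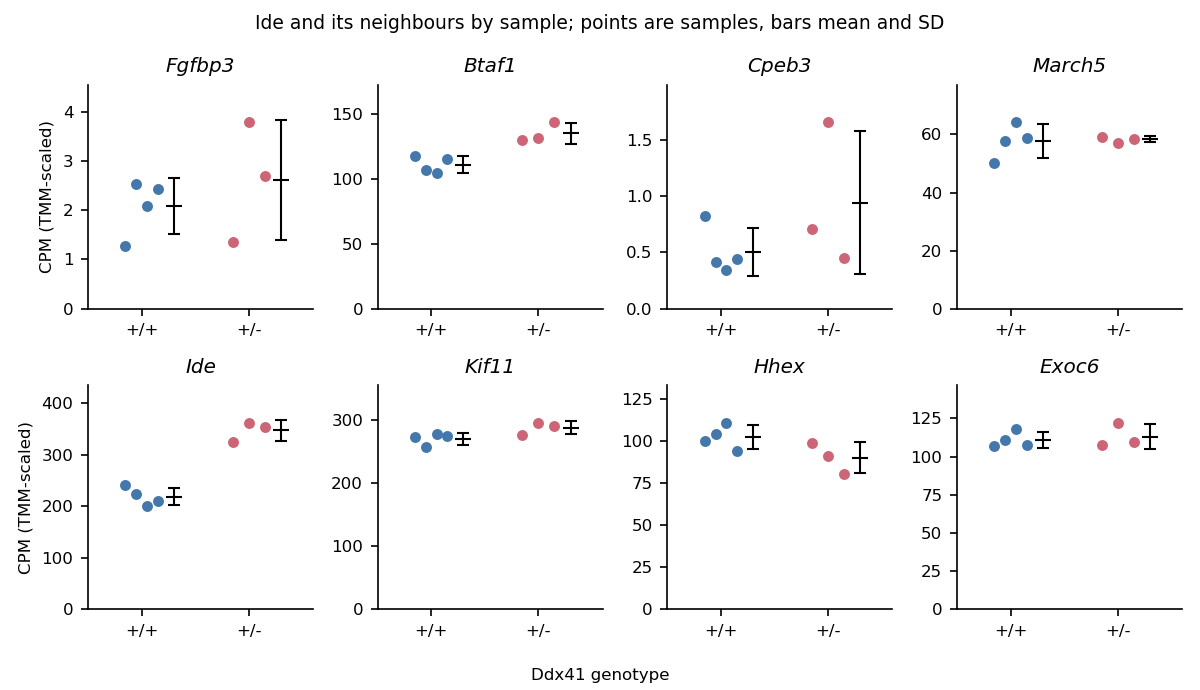
TMM-scaled CPM (vertical axes, linear from 0, a scale of its own for each gene) of Ide and its 7 neighbours by Ddx41 genotype (horizontal axes), with 1 point per sample and the mean and SD beside them (4 Ddx41+/+ and 3 Ddx41+/- samples). The genotypes separate for Ide and Btaf1 and overlap for the other 6 genes.

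Among the immediate neighbours, Kif11 and March5 had similar levels in both genotypes. Kif11, the spindle motor gene, read 271.9, 255.9, 277.2 and 274.0 CPM in Ddx41+/+ and 275.3, 295.1 and 290.1 CPM in Ddx41+/- samples. The groups overlapped in the narrow range between 275.3 and 277.2 CPM, and the log2 fold change was 0.09 (SE 0.058). March5, the mitochondrial ubiquitin ligase gene, read 50.3, 57.7, 64.3 and 58.8 CPM in Ddx41+/+ and 59.3, 57.2 and 58.5 CPM in Ddx41+/- samples. All 3 Ddx41+/- values lay inside the Ddx41+/+ range, and the log2 fold change was 0.01 (SE 0.083), or -0.05 without Ddx41+/+ replicate 1.

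Hhex was the 1 gene of the segment with a negative fold change. It read 99.7, 104.2, 110.8 and 94.2 CPM in Ddx41+/+ and 98.9, 90.8 and 80.4 CPM in Ddx41+/- samples, with means of 102.2 ± 7.03 (SD, n = 4) and 90.0 ± 9.29 CPM (SD, n = 3). Replicates 7 and 8 lay below every Ddx41+/+ sample while replicate 6 lay within their range. The log2 fold change was -0.18 (SE 0.080), and the Ddx41+/- mean was 88.1% of the Ddx41+/+ mean. Single samples moved this value, to -0.11 without Ddx41+/- replicate 8 and to -0.26 without replicate 6. Exoc6, the exocyst gene at the far end of the segment, read 106.7, 110.7, 118.1 and 107.7 CPM in Ddx41+/+ and 107.6, 122.2 and 109.6 CPM in Ddx41+/- samples. Its groups were interleaved, with a log2 fold change of 0.03 (SE 0.069), or -0.03 without Ddx41+/- replicate 7.

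Btaf1, whose product removes TBP from promoters, read 117.2, 106.5, 104.6 and 115.5 CPM in Ddx41+/+ and 129.6, 131.1 and 143.8 CPM in Ddx41+/- samples. The groups did not overlap and the gap between them was 0.15 on the log2 scale. The means were 110.9 ± 6.33 (SD, n = 4) and 134.9 ± 7.78 CPM (SD, n = 3), 1.22-fold apart, with a log2 fold change of 0.28 (SE 0.068). Its start lies 412 kb from that of Ide, with Cpeb3 and March5 in between. Btaf1 was not called by edgeR and was called by DESeq2, which called 1.28% of the genes it tested.

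Fgfbp3 and Cpeb3 had little RNA in LSK cells and their replicates varied most. Fgfbp3, for the FGF-binding protein, read 1.28, 2.54, 2.08 and 2.43 CPM in Ddx41+/+ and 1.35, 3.80 and 2.71 CPM in Ddx41+/- samples, from 53 to 128 counts each. Its groups overlapped, and the log2 fold change of 0.33 was smaller than its SE of 0.36. It was -0.04 without Ddx41+/- replicate 7 and 0.64 without replicate 6. Cpeb3, for the translation regulator, read 0.822, 0.414, 0.347 and 0.442 CPM in Ddx41+/+ and 0.711, 1.66 and 0.451 CPM in Ddx41+/- samples, from 11 to 56 counts each. Its log2 fold change was 0.87 (SE 0.59) with all samples and 0.19 without Ddx41+/- replicate 7, which held the highest value of both genes. Counting error alone was up to 30.2% of a Cpeb3 value and up to 13.7% of an Fgfbp3 value, so differences of the size seen for Btaf1 were not detectable for Cpeb3 at this depth.

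Ratios of raw counts within a sample do not depend on the scaling between samples. All of them share the Ide counts, and Ide was selected on its genotype difference, so they describe 1 pattern and are not separate results. Kif11, the gene next to the annotated Ide start, had more counts than Ide in all Ddx41+/+ samples and fewer in all Ddx41+/- samples. The Ide to Kif11 ratio was 0.888, 0.873, 0.728 and 0.768 in Ddx41+/+ and 1.18, 1.23 and 1.22 in Ddx41+/- samples, or 0.814 ± 0.0786 (SD, n = 4) against 1.21 ± 0.0253 (SD, n = 3). The Ide to Btaf1 ratio was 1.98 ± 0.126 in Ddx41+/+ and 2.58 ± 0.163 in Ddx41+/-, and its ranges of 1.82 to 2.10 and 2.46 to 2.77 did not overlap, so the neighbour that also stood higher did so by less than Ide. The ratio to Hhex was 2.16 ± 0.252 against 3.90 ± 0.565, 1.81-fold apart. Ratios to March5 (3.85 ± 0.706 against 5.96 ± 0.433) and to Exoc6 (1.99 ± 0.228 against 3.07 ± 0.140) separated likewise. Against the other 7 genes summed, Ide stood at 0.298 to 0.373 in Ddx41+/+ and 0.484 to 0.517 in Ddx41+/- samples, 1.51-fold apart. Ratios to Fgfbp3 and Cpeb3, whose counts were low, overlapped between genotypes.

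**Figure D2:**
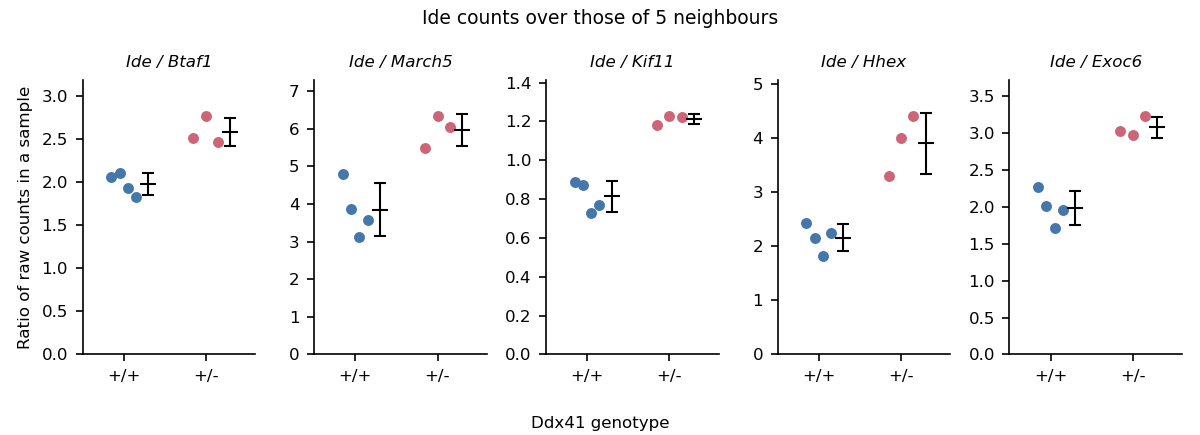
Ratio of raw Ide counts to the raw counts of Btaf1, March5, Kif11, Hhex and Exoc6 in the same sample (vertical axes, no unit, linear from 0), with 1 point per sample and the mean and SD beside them, by Ddx41 genotype (horizontal axes). In each of the 5 panels the 3 Ddx41+/- samples lie above all 4 Ddx41+/+ samples. The panels share the Ide counts and are not separate results.

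Levels of different genes were compared as CPM per kilobase of merged exons. In Ddx41+/+ samples the order was Kif11 at 36.2 ± 1.27, Exoc6 at 31.3 ± 1.45, Ide at 29.2 ± 2.31, March5 at 24.0 ± 2.40, Hhex at 20.2 ± 1.39 and Btaf1 at 10.8 ± 0.617 (CPM per kb, SD, n = 4). Exoc6 and Ide overlapped in this order, as did March5 and Hhex, while the other neighbours in the order were separate. In Ddx41+/- samples Ide came first at 46.3 ± 2.61 CPM per kb (SD, n = 3), above Kif11 at 38.4 ± 1.38 and Exoc6 at 31.9 ± 2.24, and no neighbours in the order overlapped. Fgfbp3 (1.18 and 1.48 CPM per kb) and Cpeb3 (0.0683 and 0.127 CPM per kb) were last in both genotypes. March5 and Cpeb3, whose nearest RefSeq start sites are 69 bases apart, thus stood at 24.0 and 0.0683 CPM per kb in Ddx41+/+ samples. The order depends on the length used. With the longest coding transcript in place of merged exons, Hhex moved up to 56.7 CPM per kb in Ddx41+/+ and overlapped Kif11 at 56.0. Exoc6, unchanged at 31.3 CPM per kb in Ddx41+/+, then ranked 5 and lay below Ide in both genotypes. Ide stood at 44.2 CPM per kb in Ddx41+/+ and 70.0 CPM per kb in Ddx41+/-. It ranked 3 and 1 with either length, with Hhex in place of Exoc6 above it in Ddx41+/+.

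**Figure D3:**
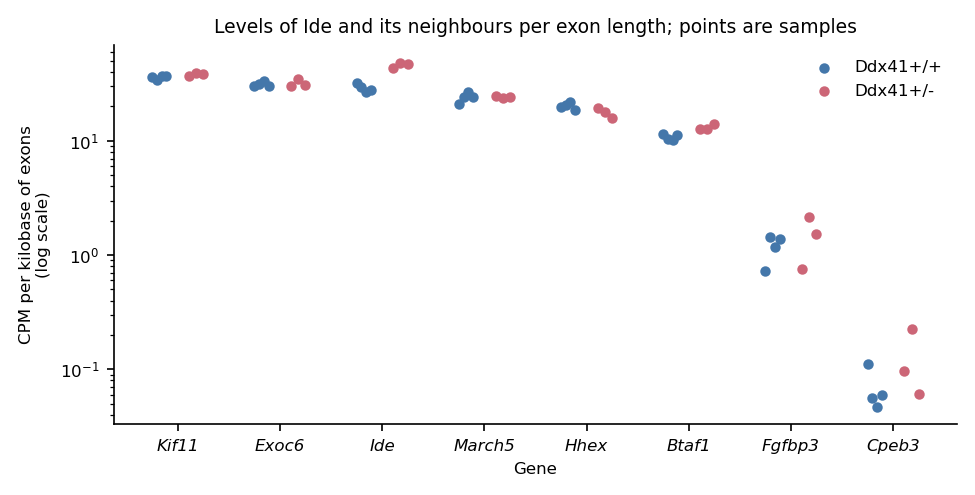
CPM per kilobase of merged exons (vertical axis, log scale) of the 8 genes (horizontal axis, in the order of their Ddx41+/+ means), with 1 point per sample and the genotypes side by side. With this length Ide passes Kif11 and Exoc6 in the Ddx41+/- samples, and Fgfbp3 and Cpeb3 lie far below the other 6 genes.

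Beyond the segment, the next tested protein-coding genes on each side showed what the surroundings did. Tnks2, a tankyrase gene 504 kb from Ide, read 138.8, 135.2, 136.4 and 138.6 CPM in Ddx41+/+ and 138.4, 146.2 and 149.4 CPM in Ddx41+/- samples, with overlap and a log2 fold change of 0.08 (SE 0.060). Hectd2, a HECT-domain ubiquitin ligase gene beyond it, read 2.95, 2.23, 2.91 and 1.66 CPM against 1.42, 3.50 and 2.50 CPM, with overlap. On the side of Exoc6, Myof, which encodes the membrane-repair protein myoferlin, read 25.1, 25.8, 20.7 and 18.9 CPM in Ddx41+/+ and 17.7, 18.2 and 17.3 CPM in Ddx41+/- samples. Myof was thus lower in every Ddx41+/- sample, by 0.35 on the log2 scale (SE 0.12), and was not called by edgeR. Cep55, a gene of cytokinetic abscission, read 48.4, 48.4, 52.2 and 48.1 CPM against 51.4, 58.9 and 54.3 CPM, with overlap and a log2 fold change of 0.15 (SE 0.076).

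Within 2 Mb of the Ide start, edgeR called 0 of the 14 other genes tested, and so did DESeq2 and limma-voom. An unadjusted edgeR p under 0.05 was reached by 3 of the 14, beside 10.6% of all genes. The same 3 had no overlap between genotypes, beside 10.1% of all genes. These were Hells, a chromatin remodeller gene 1593 kb from Ide (log2 fold change 0.23, SE 0.071), Myof, and the serotonin receptor gene Htr7 (-2.38, SE 0.91), which averaged 0.396 CPM in Ddx41+/+ and 0.0705 CPM in Ddx41+/-. Hells and Htr7 were named after their values were seen. The median log2 fold change of the 14 genes was 0.036. Over the whole chromosome, 463 other genes were tested, 1 was called and the median was -0.011. That gene was Blnk, the B-cell linker gene, 3.66 Mb beyond the Ide start and named after its values were seen. It averaged 4.97 ± 0.195 CPM in Ddx41+/+ (SD, n = 4) and 9.44 ± 1.82 CPM in Ddx41+/- (SD, n = 3), with a log2 fold change of 0.92 (SE 0.17, adjusted p = 0.0401 by edgeR). Summed over 7 B-lineage marker genes, the level was 42.4 to 63.2 CPM in Ddx41+/+ samples, against 57.0 to 78.7 CPM in Ddx41+/- samples. Much of this sum was Cd79b, named after its values were seen, with means of 29.4 and 29.7 CPM. All 7 log2 fold changes were positive, with a median of 0.54. An unadjusted edgeR p under 0.05 was reached by 3 of the 7, beside 10.6% of all genes. Of the 7, 1 was higher in every Ddx41+/- sample, beside 4.85% of all genes. The part of these genes in the Blnk value was not tested.

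The 5 genes whose profile over the 7 samples was closest to that of Ide were not on chromosome 19. Likeness was the root mean square difference of log2 CPM, each gene centred on its mean, over 11769 other genes with a mean of at least 1 CPM, and a flat profile would differ from Ide by 0.341. Closest were Tbc1d32, a cilium gene (0.103), Nav2, a neuron navigator gene (0.114), Met, the hepatocyte growth factor receptor gene (0.116), Fndc3b (0.122) and the ceramide synthase gene Cers6 (0.127). Nav2, Met and Cers6 were called by edgeR, and Nav2, for example, averaged 45.1 ± 4.51 CPM in Ddx41+/+ (SD, n = 4) and 64.4 ± 7.32 CPM in Ddx41+/- (SD, n = 3). The samples share their library and depth across genes, and Ide had been chosen for its pattern, so this is a description. Of the neighbours Btaf1 ranked highest, at position 128 with a difference of 0.205, while Kif11 ranked 1792, Exoc6 3559, March5 5617, Hhex 9587 and Fgfbp3 10796. The genes closest to Fgfbp3, Zfp72 (0.106), Mfap3l (0.172), Dmpk (0.202), Chac2 (0.211) and 1810006J02Rik (0.227), shared none with those of Ide.

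**Figure D4:**
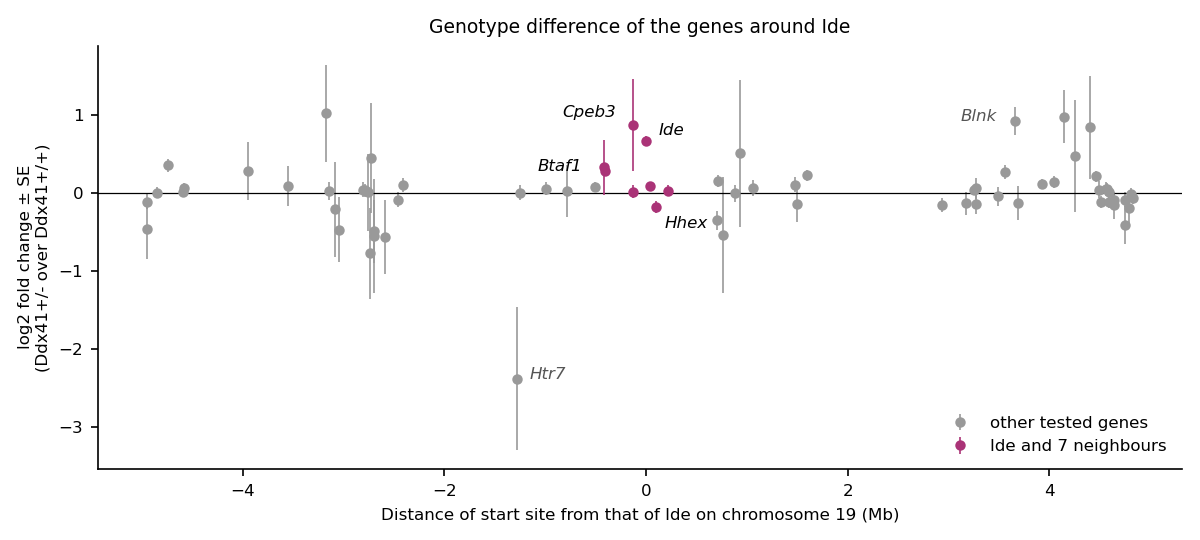
log2 fold change with its SE (vertical axis, Ddx41+/- over Ddx41+/+) of every tested gene within 5 Mb of Ide, by the distance of its start site from that of Ide in Mb (horizontal axis), with Ide and its 7 neighbours in purple. Ide at 0.66 has a short error bar, Cpeb3 at 0.87 a long one, and most genes around them lie near 0.

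Lists of the genes that the 8 proteins work with were read in the same fit, and 1 of the 110 partner genes tested was called. For Ide, the list of M16 and other peptide-degrading proteases had 0 of 11 tested genes called and a median log2 fold change of 0.0043. Its smallest p-values belonged to Ece2, an endothelin-converting enzyme gene (log2 fold change -0.20, SE 0.11), and Uqcrc2, an M16-related core subunit gene of respiratory complex III (-0.11, SE 0.067). The list of insulin and amyloid substrates and receptors had 0 of 7 called and a median of 0.13. In it App, the gene of the amyloid precursor, read 154.6 ± 10.7 CPM in Ddx41+/+ (SD, n = 4) and 187.1 ± 6.0 CPM in Ddx41+/- (SD, n = 3). App had no overlap, a log2 fold change of 0.28 (SE 0.066) and an adjusted p of 0.108 by edgeR. Irs2, an insulin receptor substrate gene, had a log2 fold change of 0.41 (SE 0.17) with overlap. The insulin genes Ins1 and Ins2 did not pass the filter on low counts.

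Hhex had the partner list with the called gene. Among 14 tested corepressors and blood transcription factors, 0 were called higher and 1 lower, beside 0.0975% of all genes called lower, and the median log2 fold change was -0.080 against -0.0048 over all genes. An unadjusted edgeR p under 0.05 was reached by 4 of the 14, beside 10.6% of all genes, and 4 of the 14 were lower in every Ddx41+/- sample, beside 5.21% of all genes. The called gene was Gata2, a factor needed for the upkeep of hematopoietic stem cells. It averaged 140.0 ± 19.7 CPM in Ddx41+/+ (SD, n = 4) and 99.4 ± 4.41 CPM in Ddx41+/- (SD, n = 3) and fell by 0.49 on the log2 scale (SE 0.093, adjusted p = 0.0471 by edgeR). No gene of the list was called without Ddx41+/+ replicate 3 or 4, or without Ddx41+/- replicate 6, 7 or 8. The same held with median-of-ratios or library-total scaling, with limma-voom and with a non-robust edgeR fit, while DESeq2 called Gata2, Tal1 and Lmo2. Tal1, a factor that works in a complex with Gata2, had a log2 fold change of -0.28 (SE 0.066) and an adjusted p of 0.105 by edgeR. Tal1 and Lmo2 were named after their values were seen. The neutrophil gene sum, higher in every Ddx41+/- sample, moved opposite to these genes. Of the 7 LSK markers, 6 had negative log2 fold changes, with a median of -0.16. An unadjusted edgeR p under 0.05 was reached by 3 of the 7, beside 10.6% of all genes. These were Hlf, a stem cell transcription factor gene (-0.46, SE 0.094, lower in every Ddx41+/- sample and called by DESeq2 but not by edgeR), Mecom (-0.36, SE 0.14) and Cd34 (-0.16, SE 0.068). Kit, the receptor gene of the sort, stood at 0.0041 (SE 0.064). These marker genes were named after their values were seen, and their part in the Gata2 value was not tested.

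The lists of the other genes had 0 calls by edgeR, and their values with an SE below are log2 fold changes. Over the 8 lists other than that of Hhex, 7 of 96 tested genes had an unadjusted edgeR p under 0.05, beside 10.6% of all genes, and DESeq2 called App and Tfrc. Exoc6's exocyst and transferrin list (0 of 14, median 0.021) held Tfrc, the transferrin receptor gene, at 152.6 ± 14.6 CPM in Ddx41+/+ and 186.1 ± 13.6 CPM in Ddx41+/-, with no overlap, a log2 fold change of 0.29 (SE 0.078) and an adjusted p of 0.176 by edgeR. Exoc5, another exocyst subunit gene, stood at a log2 fold change of 0.15 (SE 0.077). Kif11's list of mitotic kinesins and regulators (0 of 17, median 0.020) held Kif15, a spindle kinesin gene that can act alongside Kif11 (0.23, SE 0.072), and Cenpe, a kinetochore kinesin gene (0.20, SE 0.073). Btaf1's list of TBP and its regulators (0 of 19, median 0.043) held the TBP repressor gene Dr1 (0.18, SE 0.076) and the TFIID subunit gene Taf1 (0.19, SE 0.084). March5's mitochondrial list (0 of 13, median 0.0035) held Opa1, a gene of inner membrane fusion (0.13, SE 0.061), and Mul1, a mitochondrial ubiquitin ligase gene (-0.20, SE 0.10). Cpeb3's list (0 of 11, median 0.087) held Cpeb4 (0.31, SE 0.16) and the deadenylase gene Cnot7 (0.11, SE 0.074). Fgfbp3's FGF list (0 of 4, median -0.12) held the receptor-like gene Fgfrl1 (-0.37, SE 0.19) and Fgf1 (1.03, SE 0.77), which averaged 0.406 CPM in Ddx41+/+ and 0.837 CPM in Ddx41+/-.

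**Figure D5:**
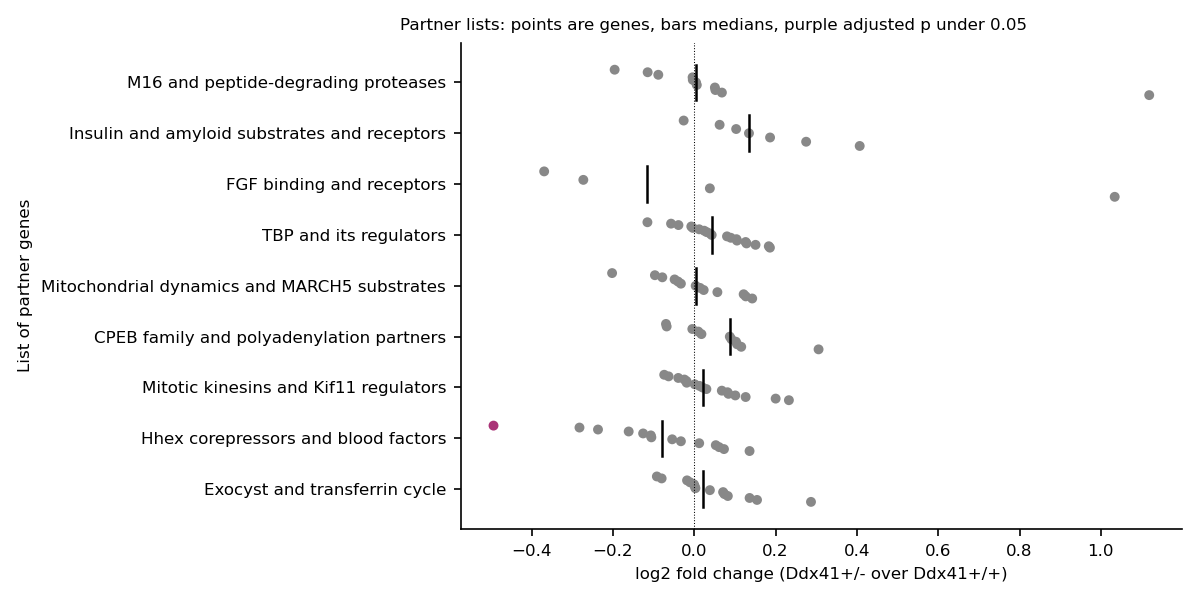
log2 fold change (horizontal axis, Ddx41+/- over Ddx41+/+) of each tested gene of the 9 partner lists (vertical axis), with a black bar at the median of each list and purple for an adjusted p under 0.05 by edgeR. The 1 purple point is Gata2, at -0.49 in the Hhex list.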

How the data were processed

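Poly(A) RNA of sorted LSK cells was sequenced in 7 samples. The authors deposited a table of unnormalized counts, 1 row per gene symbol. The submitters' processing notes name FastQC 0.11.7, HISAT2 2.0.5 and featureCounts 1.5.2, with build mm10. Labels and methods name different TruSeq kits, and the use of strand in counting is not given in the sources used here. The file of these counts is named as lacking Ddx41+/- library 5, with no reason stated, and that library was not analysed here. Groups follow the genotypes in the labels. Per the labels, cells were sorted by mouse. That each replicate is 1 mouse is not stated, and p-values set a genotype difference against the spread between these samples. No 2 samples agreed within sampling noise (21 pairs).

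The 8 genes, the partner and marker lists and the comparisons were chosen with earlier results of these data known. Of 24421 symbols, 13340 passed edgeR's filterByExpr and were tested with its quasi-likelihood test (edgeR 4.0.16, R 4.3.3, robust, TMM scaling, no covariate), with Benjamini-Hochberg adjustment over all of them and a threshold of 0.05. It was tested on simulated data. CPM was computed with TMM-scaled library sizes, and log2 CPM for likeness with a prior count of 2. Counting errors cover counting only. Alternatives were DESeq2 1.42.0, limma-voom (limma 3.58.1), other scalings and filters, a non-robust fit, a threshold of 0.1, other windows and likeness measures, and leaving out each sample. Levels per length with the longest coding transcript were added after seeing the data. Positions and lengths come from GENCODE M21 (GRCm38), and promoters from RefSeq, where all 8 genes matched (March5 as Marchf5).

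Genes named were the 8 genes, Ddx41, the 2 nearest tested protein-coding genes on each side, called genes within 2 Mb, the 5 most like Ide and Fgfbp3, and in each partner list the called genes or else the 2 with the smallest p. Exceptions are named where they occur. The summed T and NK cell, macrophage and late erythroid markers overlapped between genotypes (221 to 273 against 251 to 281 CPM, 74.9 to 98.9 against 83.0 to 115 CPM, and 24.7 to 48.7 against 35.4 to 58.0 CPM). Nearly all of the T and NK sum was Nkg7, with means of 253.4 CPM in Ddx41+/+ and 264.9 CPM in Ddx41+/-. Cd3e, Cd3d, Cd3g and Gzma did not pass the filter on low counts, and Trbc2 was absent from the count table. These genes were named after their values were seen.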

Additional observations from a re-analysis of the deposited data

How the results depend on the processing

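As a description, since Ide was selected on these samples, its log2 fold change was 0.63 to 0.71 when a sample was left out and 0.65 to 0.67 under the other alternatives. Ddx41 was called throughout. Btaf1 was positive in all 15 fits (0.23 to 0.31) and the 8 genes held 2 calls by DESeq2 instead of 1. The direction turned for Fgfbp3 (-0.04) and Exoc6 (-0.03) without Ddx41+/- replicate 7 and for March5 (-0.05) without Ddx41+/+ replicate 1. Genes called over the whole table, 29 by edgeR, numbered 15 with library totals, 91 without a filter, 164 with DESeq2, 10 with limma-voom, 14 with the non-robust fit, 74 at an adjusted p under 0.1, and 7 (without Ddx41+/+ replicate 2) to 41 (without Ddx41+/+ replicate 1) with a sample left out. Partner genes called, 1 by edgeR (Gata2), numbered 5 with DESeq2, 0 with median-of-ratios scaling, library totals, limma-voom and the non-robust fit, and 0 to 1 with a sample left out (0 without Ddx41+/+ replicate 3 or 4 or Ddx41+/- replicate 6, 7 or 8). Called genes other than the 8 numbered 0 within 2 Mb of Ide and 1 within 5 or 10 Mb. With Pearson correlation as the likeness, 1 of the 5 genes most like Ide was shared. The cause of these changes was not tested. No scaling moved the median of all genes by more than 0.1 on the log2 scale. Cpeb3 and Fgfbp3 are limited by their counts. No paired analysis was possible because the genotypes share no replicate number.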
